A study of Mus musculus with 12 samples.

Results

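Expression of the genes that carry and read Wnt signals was followed across the epithelium of the circumvallate papilla of mice, a domed structure far back on the tongue whose trenches are lined with taste buds. The set was chosen by gene symbol. It holds 36 of the 52670 symbols in the deposited tables, namely 19 Wnt ligands, 10 Frizzled receptors, the co-receptors Lrp5 and Lrp6, Ctnnb1 (beta-catenin) and the 4 DNA-binding factors Lef1, Tcf7, Tcf7l1 and Tcf7l2. Of the 36, 30 passed the filter on low counts and were tested. All mice carried the Sox2GFP reporter, a green fluorescent protein (GFP) that marks Sox2 expression, and were adults of 11 to 12 weeks. Epithelial cells were sorted by GFP brightness into 4 bins, Low, MedLow, HiMed and High, and GFP-negative cells were discarded. Each bin has 3 libraries of polyadenylated RNA, and each replicate is a pool of 7 to 13 mice. The bins are levels of a reporter and not purified cell types. P-values therefore measure the spread between such pools, and fewer cells of a type cannot be told apart from less RNA per cell.

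Wnt proteins are lipid-modified secreted ligands that bind Frizzled receptors. With Lrp5 or Lrp6 as co-receptor they stabilise beta-catenin, which enters the nucleus and activates genes through the Tcf/Lef factors, while other ligand and receptor pairs act on cell polarity and movement without beta-catenin. In the tongue, beta-catenin signalling is needed to form taste papillae and to renew taste cells, and Sox2 is a transcription factor required in the progenitors of taste buds.

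Values below are CPM, read counts scaled to library depth with TMM factors, which serve to compare 1 gene between bins, in the order replicate 1, 2 and 3. Means are given ± SD with n = 3 libraries in each bin. Changes are log2 fold changes, given with their standard error (SE) and a p-value from edgeR's quasi-likelihood test adjusted over all genes tested by the Benjamini-Hochberg method. A gene is called when that adjusted p is under 0.05. The comparisons share libraries (High, for example, enters both High against Low and High against HiMed), so they are set side by side and are not independent of each other.

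To show the DNA at which such factors could bind, the 250 bases before the RefSeq start sites of the members were searched for the core letters ATCAAAG and TTCAAAG of Tcf/Lef factors and for ACAATG and ACAAAG of Sox factors, on both strands. RefSeq windows of build GRCm38.p6 were matched by symbol for 26 of the 36 members, with 35 start sites in all. Fzd2, Fzd3, Fzd6, Fzd8, Lrp5, Lrp6, Wnt10a, Wnt5a, Wnt7b and Wnt8a had no entry. Of the 35 windows, 2 held a Tcf/Lef core, where 7.48% of all 32851 RefSeq windows did, and 9 held a Sox core, where 25.2% of all windows did. Below are windows of 3 genes called higher in High than in Low that hold such letters, and that of Wnt11. The Wnt11 window was added after its values were seen because, with that of Wnt5b, it is 1 of the 2 with a Tcf/Lef core. Both hold ATCAAAG, and no window of a member held TTCAAAG. Sequences run 5′ to 3′ on the strand of the gene, ending at the base before the start, and capitals mark the letters found.
Fzd1, chr5:4758217-4758466, minus strand: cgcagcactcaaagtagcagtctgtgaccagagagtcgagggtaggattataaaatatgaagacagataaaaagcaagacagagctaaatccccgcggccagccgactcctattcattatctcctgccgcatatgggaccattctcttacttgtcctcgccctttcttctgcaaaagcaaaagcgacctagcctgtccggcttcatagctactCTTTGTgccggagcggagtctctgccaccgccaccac
Tcf7l2, chr19:55741560-55741809, plus strand: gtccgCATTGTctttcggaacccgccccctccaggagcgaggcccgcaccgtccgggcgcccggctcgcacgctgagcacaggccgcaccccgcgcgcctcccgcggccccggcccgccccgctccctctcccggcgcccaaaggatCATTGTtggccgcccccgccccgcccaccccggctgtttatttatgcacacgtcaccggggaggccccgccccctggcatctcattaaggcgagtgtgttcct
Wnt5b, chr6:119449387-119449636, minus strand: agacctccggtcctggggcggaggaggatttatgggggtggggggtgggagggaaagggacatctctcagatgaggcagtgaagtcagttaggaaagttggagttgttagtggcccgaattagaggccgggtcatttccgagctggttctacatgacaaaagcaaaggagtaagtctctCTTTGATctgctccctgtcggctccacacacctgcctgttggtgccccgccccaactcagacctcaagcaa
Wnt11, chr7:98834862-98835111, plus strand: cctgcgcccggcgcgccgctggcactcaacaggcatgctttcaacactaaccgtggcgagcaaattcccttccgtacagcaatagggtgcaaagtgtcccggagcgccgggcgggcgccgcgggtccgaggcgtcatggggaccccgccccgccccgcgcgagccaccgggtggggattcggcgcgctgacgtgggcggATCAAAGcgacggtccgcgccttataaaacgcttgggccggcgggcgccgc
In the Fzd1 window the Sox core ACAAAG lay on the opposite strand, from 37 to 32 bases before the start. The Tcf7l2 window, 1 of those listed for that gene, held the Sox core ACAATG at 2 places on the opposite strand, from 245 to 240 and from 103 to 98 bases before the start, and another Tcf7l2 window, not printed, held ACAAAG from 14 to 9 bases before its start. The Wnt5b window, 1 of 3 listed for that gene, held the Tcf/Lef core ATCAAAG on the opposite strand, from 71 to 65 bases before the start. In the Wnt11 window ATCAAAG lay on the strand of the gene, from 51 to 45 bases before the start. The first bases after the start lay in a transcript of the gene in GENCODE, another annotation, for the Wnt5b and Wnt11 windows printed here. For the Fzd1 window and both Tcf7l2 windows they did not, so those starts and the distances to them are less sure. These are matches of letters only, and binding was not measured.

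Library totals ran from 25.7 to 55.6 M counts. Sox2 itself, the gene behind the sort, rose with every step of brightness, with 70.3 ± 6.17 CPM in Low, then 98.0 ± 1.20 in MedLow, 171 ± 2.64 in HiMed, and 373 ± 12.8 in High. The bins also differed in markers of other cells. Summed over each list, 7 basal keratinocyte markers ranged from 33691 to 34225 CPM in Low and from 5346 to 8187 in High, and 4 taste bud keratins from 521 to 724 in Low and from 2264 to 4185 in High. Type II taste cell markers ranged from 843 to 1035 CPM in Low and from 399 to 478 in High (6 of 7 lower), and 6 markers of G2 and M phase from 795 to 1013 and from 343 to 504. Markers of the von Ebner gland, which opens into the trenches, ran from 775 to 2477 CPM in Low and from 13.9 to 145 in High. Of these 6 markers, 2 were called lower and 1 higher in High than in Low. The 7 suprabasal keratinocyte markers summed to 26233 to 26975 CPM in MedLow and to 2442 to 3626 in High. In HiMed they summed to 8813 CPM in replicate 1 but to 25541 and 19116 in replicates 2 and 3. Of the 7 suprabasal markers, 4 were called lower and 1, Dsc2, higher in High than in Low. Of 8 fibroblast markers, Lum had no counts, and the list fell from 591 to 632 CPM in Low to 8.37 to 17.4 in High. Dcn held nearly all of that sum in Low but not in High, so the fall of the list is that of 1 gene. Leukocyte markers ranged from 27.9 to 46.1 CPM in Low and from 105 to 312 in High, mostly Lyz2, with Cd3e at 0. The part that these cells have in the results below was not tested.

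Across the 4 bins, 25 of the 30 tested members differed, where 42.02% of all genes tested did. The exceptions were Wnt9b, Wnt16, Fzd5, Fzd6 and Fzd9. With 1 library left out at a time, 20 to 25 members were called, and Ctnnb1, Fzd2, Lrp6, Tcf7l1 and Wnt6 each lost the call at least once (adjusted p from 0.0513 to 0.11). Between High and Low, 18 members were called, 11 higher and 7 lower in High, with 12 not called. Over all genes 41.2% were called in that comparison, 20.01% higher and 21.2% lower, and the median log2 fold change was 0.16 for the members and -0.01 for all genes. By role, the directions differed. Of 13 ligands tested, 6 fell and 3 rose, with a median of -1.84, whereas the 5 Frizzled receptors that were called all rose and of the 4 Tcf/Lef factors 2 rose and none was called lower. The highest mean, called or not, lay in Low for 6 members, in MedLow for 5, in HiMed for 4 and in High for 15. Means rose at every step of brightness for 5 members (Fzd1, Fzd10, Tcf7l2, Wnt5a and Wnt5b) and fell at every step for 4 (Wnt3, Wnt4, Wnt10a and Wnt10b), so most members did not follow the reporter in a straight order.

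The ligands that fell were led by Wnt4 and Wnt10a, the most abundant ligand transcripts of the dim bin. Wnt4, a ligand used in kidney and reproductive tract development, measured 296, 359 and 335 CPM in Low, 308, 349 and 308 in MedLow, 163, 219.7 and 165 in HiMed, and 61.2, 89.0 and 55.4 in High. Its Low and MedLow libraries overlapped, and every HiMed library lay below them and above every High library. From Low to High the log2 fold change was -2.27, SE 0.18, adjusted p = 7.7e-07. The drop came at the bright end, with a change of -0.82, SE 0.17, adjusted p = 0.0074 from MedLow to HiMed and of -1.41, SE 0.17, adjusted p = 1.3e-04 from HiMed to High, while Low and MedLow gave -0.04, SE 0.17, adjusted p = 0.974.

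Wnt10a, a beta-catenin-activating ligand whose loss in people leaves a smooth tongue with few papillae, measured 102, 109 and 112 CPM in Low, 80.9, 81.0 and 81.0 in MedLow, 44.1, 52.2 and 52.3 in HiMed, and 7.68, 10.6 and 6.24 in High. The 4 bins did not overlap. Its change from Low to High was -3.72, SE 0.15, adjusted p = 1.7e-10, a 13.2-fold difference, and most of it lay between HiMed and High (-2.60, SE 0.15, adjusted p = 9.7e-08). The gene next to it, Wnt6, was much scarcer, at 3.44, 3.31 and 4.05 CPM in Low, 4.32, 3.82 and 2.84 in MedLow, 0.280, 2.98 and 2.61 in HiMed, and 0.923, 0.526 and 0.777 in High. Wnt6 was lower in High than in Low (-2.28, SE 0.63, adjusted p = 0.0088). In HiMed, replicate 1 stood apart at 0.280 CPM, and without it the step from HiMed to High was called (adjusted p = 0.0035) where with it that step gave -1.40, SE 0.62, adjusted p = 0.124. Those 2 neighbours fell together.

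Wnt3a, a classical activator of beta-catenin, held level over 3 bins and dropped in the brightest, with 13.3, 12.5 and 10.3 CPM in Low, 12.7, 13.2 and 11.2 in MedLow, 12.6, 11.0 and 9.13 in HiMed, and 3.33, 4.39 and 2.35 in High. No High library reached the lowest of the other 9, and the step from HiMed to High was -1.70, SE 0.23, adjusted p = 9.8e-05. Wnt3 and Wnt10b, both of the same signalling class, were low in Low and had no counts in High. Wnt10b measured 6.33, 3.15 and 3.56 CPM in Low, 1.57, 0.968 and 1.08 in MedLow, 0, 0.109 and 0.163 in HiMed, and 0 in all 3 libraries in High. Wnt3 measured 2.12, 3.71 and 7.81 CPM in Low, 0.926, 1.26 and 0.421 in MedLow, 0, 0.164 and 0 in HiMed, and 0 in all 3 libraries in High. With 3 counts over the High libraries taken as the floor (0.0200 CPM), both were at least 228-fold lower in High than in Low, with adjusted p = 2.6e-05 for Wnt10b and 1.8e-04 for Wnt3. Between HiMed and High, Wnt10b dropped at least 4.82-fold (adjusted p = 0.0196), and this was not called without HiMed replicate 3 (0.0784) or High replicate 3 (0.0512), nor with limma voom (0.326), edgeR 4 defaults (0.327) or limma on log2(TPM + 1) (0.822). Wnt3 fell from MedLow to HiMed by 4.05 on the log2 scale (SE 1.2, adjusted p = 0.0383), a call lost without any 1 of 6 libraries (Low replicates 2 and 3, MedLow replicates 1 and 2, HiMed replicates 1 and 3, with adjusted p from 0.0625 to 0.116) and with limma voom (0.102) or edgeR 4 defaults (0.112). RefSeq places the spans of Wnt3 and Wnt9b over each other, so reads of that pair may be split uncertainly.

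The ligands that rose with the reporter were Wnt5a, Wnt5b and Wnt9a. Wnt5a, the ligand best known for signalling without beta-catenin, measured 33.1, 29.1 and 38.5 CPM in Low, 48.1, 44.3 and 53.2 in MedLow, 119, 101 and 119 in HiMed, and 123, 117 and 118 in High. No Low or MedLow library exceeded 53.2 CPM and every HiMed and High library was above them, with no overlap between the dim pair of bins and the bright pair. The change from Low to High was 1.83, SE 0.11, adjusted p = 3.9e-09, and its largest step was from MedLow to HiMed (1.22, SE 0.11, adjusted p = 2.6e-06), whereas HiMed and High gave 0.08, SE 0.10, adjusted p = 0.656. Fibroblasts are a common source of Wnt5a in skin and tongue. Of the 3 fibroblast markers tested, Dcn, which held nearly all of their sum in Low but not in High, was lower in High than in Low. Pdgfra was higher in High, at 2.67 ± 0.833 CPM in Low and 5.99 ± 2.296 in High (adjusted p = 0.0418). Col1a1 was not called (-0.90, SE 0.84, adjusted p = 0.439). The part of such cells in the Wnt5a values was not tested. Wnt5b, its close relative, measured 1.86, 4.60 and 1.82 CPM in Low, 2.65, 3.15 and 4.00 in MedLow, 10.8, 4.95 and 5.60 in HiMed, and 17.1, 12.6 and 21.5 in High. Every High library was above every other library, and the change from Low to High was 2.65, SE 0.40, adjusted p = 8.7e-05. Its step from HiMed to High (1.26, SE 0.38, adjusted p = 0.0271) was not called without HiMed replicate 2 (adjusted p = 0.11), HiMed replicate 3 (0.106), High replicate 1 (0.0615) or High replicate 3 (0.107).

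Wnt9a, a ligand that can activate beta-catenin, showed the largest rise among the ligands. It measured 5.41, 3.55 and 5.27 CPM in Low, 31.3, 22.1 and 37.6 in MedLow, 67.5, 62.5 and 67.6 in HiMed, and 57.0, 52.5 and 44.5 in High. The 3 Low libraries were all under 6 CPM, and the highest values were in HiMed. It rose from Low to MedLow (2.66, SE 0.20, adjusted p = 2.1e-06) and again to HiMed (1.12, SE 0.18, adjusted p = 7.4e-04), ending in High 10.7-fold above Low (3.42, SE 0.20, adjusted p = 9.7e-09). Wnt3a and Wnt9a are neighbours in the genome and moved in opposite directions.

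**Figure D1:**
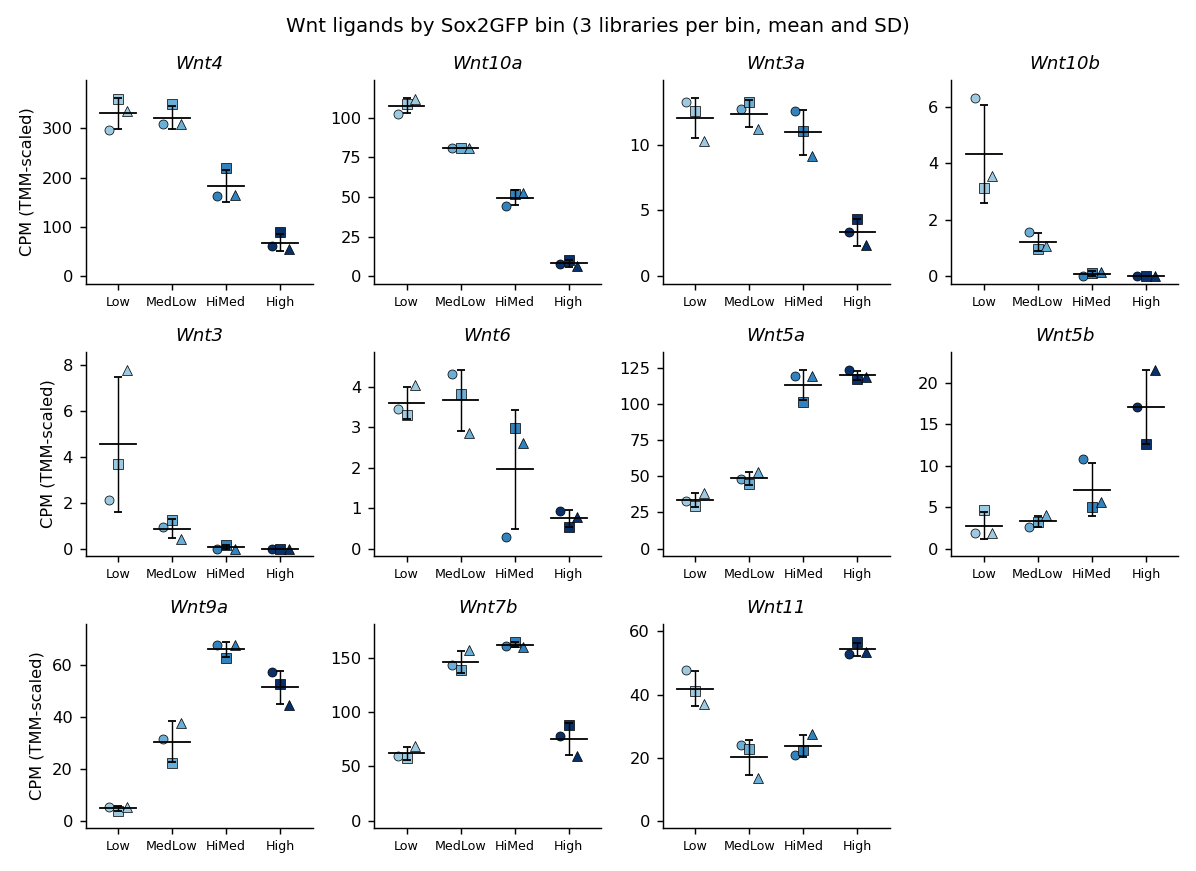
CPM of 11 Wnt ligands (y axis, linear, a scale for each gene) in the 4 Sox2GFP bins (x axis), with replicates 1, 2 and 3 as circle, square and triangle, the mean as a line and the SD as a bar. Wnt4, Wnt10a, Wnt3a, Wnt10b, Wnt3 and Wnt6 are lowest in High, Wnt5a and Wnt5b are highest there, Wnt9a and Wnt7b peak in HiMed and Wnt11 is lowest in MedLow.

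A pair of ligands had their extremes in the middle bins. Wnt7b, an epithelial ligand in skin, lung and kidney, measured 59.7, 57.3 and 69.0 CPM in Low, 143, 138 and 158 in MedLow, 161, 165 and 159.8 in HiMed, and 78.0, 87.8 and 59.4 in High. All 6 middle libraries were above all 6 outer ones. It rose from Low to MedLow (1.24, SE 0.12, adjusted p = 1.3e-05) and fell from HiMed to High (-1.11, SE 0.12, adjusted p = 1.1e-05), while High against Low gave 0.28, SE 0.12, adjusted p = 0.0736, which was called without Low replicate 3 (0.0428) or High replicate 3 (0.0023). The summed suprabasal keratinocyte markers had their highest mean in MedLow, whereas Wnt7b had its highest mean in HiMed. Each marker of that list except Dsc2 had its highest mean in MedLow, and Dsc2 had its highest mean in High. HiMed replicate 1, with 8813 CPM of the summed suprabasal markers against 25541 and 19116 in replicates 2 and 3, held 161 CPM of Wnt7b, against 165 and 160. The part of suprabasal cells in the Wnt7b values was not tested. Wnt11 had the opposite shape. It is a ligand of the movement-related branch, and it measured 47.8, 41.1 and 36.8 CPM in Low, 24.02, 22.6 and 13.7 in MedLow, 20.8, 22.5 and 27.6 in HiMed, and 52.8, 56.7 and 53.6 in High. Every middle library lay below every Low and High library. Wnt11 fell from Low to MedLow (-1.06, SE 0.18, adjusted p = 0.0021) and rose from HiMed to High (1.20, SE 0.18, adjusted p = 2.4e-04). Its outer bins gave 0.38, SE 0.18, adjusted p = 0.106, a difference called without MedLow replicate 3 (0.0288).

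The other ligands were barely detected. Wnt9b reached at most 0.447 CPM and Wnt16 at most 0.591 CPM in any library, and neither was called in any comparison. Wnt1, Wnt2b and Wnt7a did not pass the filter, with at most 15, 13 and 8 counts in a library. Wnt2, Wnt8a and Wnt8b had no counts in any of the 12 libraries, which allows up to 0.0284 CPM in Low and 0.0200 CPM in High at a floor of 3 counts for each bin.

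Of the 10 Frizzled genes, Fzd1, Fzd2, Fzd3, Fzd4 and Fzd10 were higher in High than in Low and none was called lower. Fzd1, Fzd2 and Fzd7 form the subfamily that most often couples to beta-catenin, and they did not move alike. Fzd1 measured 100.2, 129 and 116 CPM in Low, 186, 164 and 196 in MedLow, 343, 333 and 337 in HiMed, and 513, 480.2 and 587 in High. Its bins did not overlap, and it was called at every step, by 0.66, SE 0.10, adjusted p = 6.3e-04 from Low to MedLow, 0.89, SE 0.10, adjusted p = 3.0e-05 to HiMed and 0.64, SE 0.10, adjusted p = 2.6e-04 to High, for 2.20, SE 0.10, adjusted p = 3.6e-10 in all. Fzd2 measured 31.7, 39.4 and 28.8 CPM in Low, 31.7, 34.1 and 31.7 in MedLow, 38.2, 35.9 and 42.6 in HiMed, and 47.2, 42.4 and 39.9 in High, with every High library above every Low library. Its change of 0.38, SE 0.12, adjusted p = 0.0203 was not called without Low replicate 1 (0.0751), Low replicate 3 (0.113) or High replicate 1 (0.0857).

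Fzd7 measured 206, 201 and 162 CPM in Low, 254, 213 and 215 in MedLow, 242, 241 and 224 in HiMed, and 172, 161 and 148 in High. It fell from HiMed to High (-0.56, SE 0.10, adjusted p = 8.5e-04), where the libraries did not overlap. High against Low gave -0.24, SE 0.10, adjusted p = 0.0643, which was called with the replicate number as a block (adjusted p = 0.0155) and without Low replicate 3 (0.0115). MedLow against Low gave 0.26, SE 0.10, adjusted p = 0.162, also called with the replicate block (0.0332).

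Fzd4, Fzd9 and Fzd10 form another subfamily. Fzd4, the receptor that also binds the non-Wnt ligand norrin, was a gene of the brightest bin, with 8.76, 11.4 and 9.81 CPM in Low, 5.22, 8.33 and 9.16 in MedLow, 10.7, 10.6 and 12.1 in HiMed, and 85.4, 67.0 and 134 in High. The 9 libraries of the other bins stayed at or below 12.1 CPM. Its change was 3.10, SE 0.26, adjusted p = 7.1e-06 from HiMed to High and 3.26, SE 0.26, adjusted p = 8.8e-07 from Low to High, and neither lower step was called. Fzd4 shares its span with Tmem135 in RefSeq, and whether reads were counted by strand is not given in the sources used here. Fzd10 measured 33.6, 32.4 and 32.2 CPM in Low, 37.3, 45.7 and 44.4 in MedLow, 44.4, 48.9 and 50.9 in HiMed, and 96.4, 102 and 114 in High, and every High library was at least 96.4 CPM. It changed by 1.67, SE 0.10, adjusted p = 4.9e-09 from Low to High. Its opposite-strand gene Fzd10os moved with it (1.92, SE 0.26, adjusted p = 2.1e-05). The step of Fzd10 from Low to MedLow (0.38, SE 0.10, adjusted p = 0.0307) was lost without Low replicate 1, 2 or 3 or MedLow replicate 2 or 3, with adjusted p from 0.0728 to 0.143. Fzd9 did not exceed 1.25 CPM in any library. In High its counts came from replicate 3 alone, and without that library Fzd9 was called lower in High than in Low (adjusted p = 0.0115) and than in HiMed (0.0213).

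Fzd3, a receptor of the polarity branch, measured 24.5, 30.3 and 29.4 CPM in Low, 28.3, 26.5 and 26.1 in MedLow, 41.3, 37.6 and 37.6 in HiMed, and 43.8, 41.2 and 39.4 in High. The brighter pair of bins did not overlap the dimmer pair, and MedLow and HiMed differed by 0.53, SE 0.10, adjusted p = 0.0032. Its partner in sequence, Fzd6, ranged from 65.7 to 92.8 CPM and was not called in any comparison (-0.07, SE 0.11, adjusted p = 0.666 for High over Low). Of the remaining subfamily, Fzd5 ranged from 51.7 to 66.0 CPM and was likewise not called (-0.18, SE 0.092, adjusted p = 0.146 for High over Low). Fzd8 measured 22.1, 25.0 and 19.1 CPM in Low, 16.5, 15.6 and 13.9 in MedLow, 13.1, 17.4 and 18.9 in HiMed, and 23.1, 24.5 and 21.4 in High. Its rise from HiMed to High (0.48, SE 0.16, adjusted p = 0.0384) was lost without any 1 of 8 libraries (Low replicate 1, MedLow replicates 1 and 2, HiMed replicates 1 and 2, and each High replicate, with adjusted p from 0.05 to 0.133), and Low to MedLow gave -0.52, SE 0.16, adjusted p = 0.0648, called without HiMed replicate 1 (0.0281).

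The co-receptors diverged. Lrp5 measured 379, 414 and 383 CPM in Low, 407, 417 and 377 in MedLow, 263, 340.2 and 299 in HiMed, and 242, 229.8 and 214 in High. Low and MedLow overlapped, and the 6 brighter libraries lay below the 6 dimmer ones. It fell from MedLow to HiMed (-0.41, SE 0.09, adjusted p = 0.0064) and from HiMed to High (-0.40, SE 0.09, adjusted p = 0.005), for -0.78, SE 0.091, adjusted p = 5.1e-06 in all. Lrp6 measured 105, 112 and 112 CPM in Low, 99.7, 103 and 106 in MedLow, 122, 107 and 127 in HiMed, and 142, 115 and 130.1 in High. High lay above Low by 0.23, SE 0.087, adjusted p = 0.0433, a small rise that was lost without any 1 of 8 libraries (each Low and MedLow replicate and High replicates 1 and 3, with adjusted p from 0.054 to 0.2). Ctnnb1, the transducer itself, measured 899, 995 and 942 CPM in Low, 860.4, 859 and 841 in MedLow, 931, 926 and 938 in HiMed, and 1096, 1054 and 1019.8 in High. It ranged from 841 to 1096 CPM. It differed among the bins (adjusted p = 0.0112), a call lost without High replicate 1 (0.0577). No comparison between 2 bins was called in the edgeR fit, and several alternatives called one. High against Low gave 0.16, SE 0.068, adjusted p = 0.0712, called without High replicate 3 (0.0437), with a filter of 1 CPM (0.0436), with library size scaling (0.0121), DESeq2 (0.0104) or limma voom (0.0348), and with limma on log2(TPM + 1), where the change was 0.42 (2.3e-04). High against HiMed gave 0.18, SE 0.068, adjusted p = 0.0693, called with the replicate block (0.0486), library size scaling (0.0339), DESeq2 (0.0048), limma voom (0.0327) and limma on log2(TPM + 1), where the change was 0.35 (0.0027). MedLow against Low gave -0.15, SE 0.068, adjusted p = 0.277, called by DESeq2 (0.0298).

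**Figure D2:**
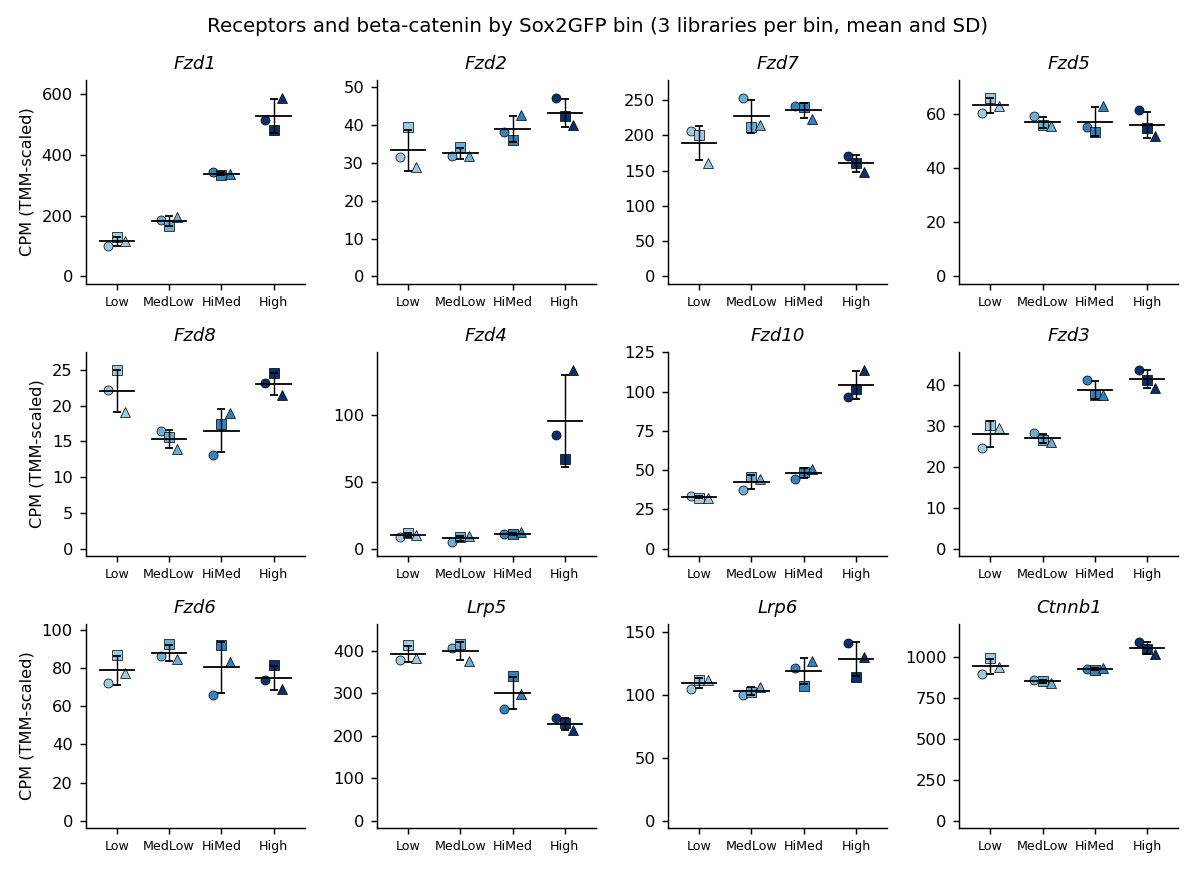
CPM of 9 Frizzled receptors, Lrp5, Lrp6 and Ctnnb1 (y axis, linear, a scale for each gene) in the 4 Sox2GFP bins (x axis), with replicates 1, 2 and 3 as circle, square and triangle, the mean as a line and the SD as a bar. Fzd1 climbs at each step to 527 CPM, Fzd4 is at or below 12.1 CPM outside High, and Lrp5 falls from HiMed on.

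Compared one step at a time, the last step, from HiMed to High, held more calls of members, as of all genes, than either other step. From HiMed to High 17 were called, 10 higher and 7 lower, against 22.3% of all genes (10.6% higher, 11.7% lower), and the members' median log2 fold change was 0.09. From MedLow to HiMed 10 were called, 5 in each direction, against 13.6% of all genes (7.33% higher, 6.30% lower), with a median of 0.12. From Low to MedLow 8 were called, 5 higher and 3 lower, against 6.47% of all genes (3.96% higher, 2.50% lower), with a median of -0.04. The balance of that step turned with the tool, to 5 higher and 7 lower with DESeq2, 5 and 6 with edgeR 4 defaults and 4 and 5 with limma voom. The medians of all genes were between -0.02 and 0 at each step. Ligands made up 5 of the 7 that fell at the last step, and all 4 Tcf/Lef factors were among the 10 that rose.

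**Figure D3:**
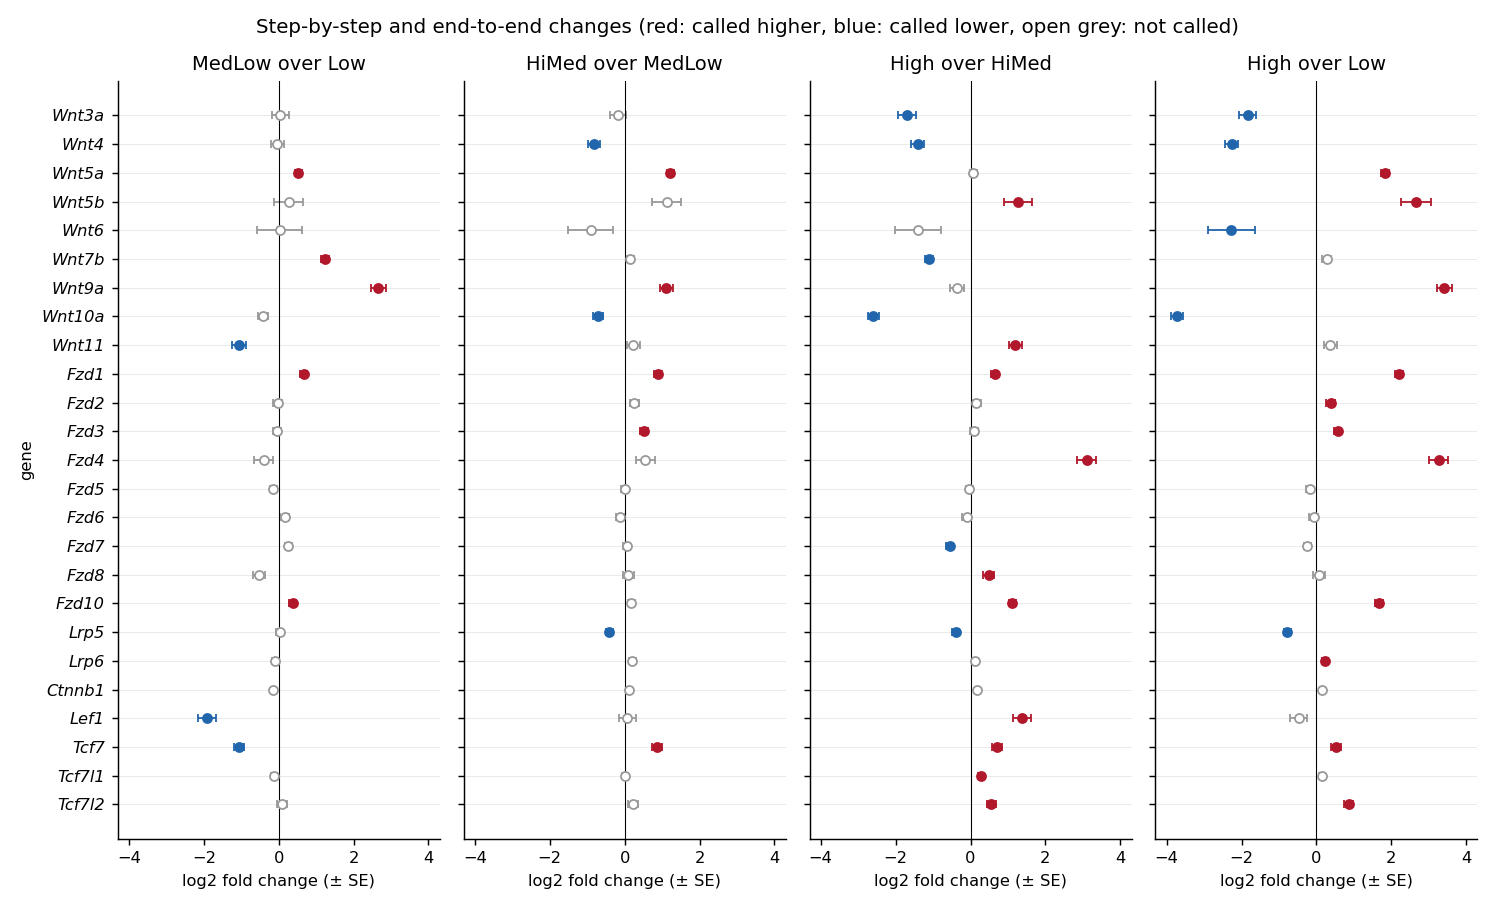
Log2 fold change with its SE (x axis) of 25 tested members (y axis) for the 3 steps between neighbouring bins and for High over Low, with red for called higher, blue for called lower and open grey for not called. Wnt3, Wnt9b, Wnt10b, Wnt16 and Fzd9 are left out for their low counts. Lef1, Tcf7 and Wnt11 fall in the first step and rise in the last.

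Of the Tcf/Lef factors, Lef1 and Tcf7 fell from Low to MedLow and rose again towards High. Lef1, the activator that is itself a target of beta-catenin, measured 123, 140.0 and 114 CPM in Low, 37.4, 38.4 and 24.4 in MedLow, 47.1, 24.7 and 33.2 in HiMed, and 98.8, 79.3 and 94.7 in High. Every middle library lay below every Low and High library. Lef1 fell from Low to MedLow (-1.91, SE 0.23, adjusted p = 6.4e-04) and rose from HiMed to High (1.38, SE 0.23, adjusted p = 0.0016), and the outer bins gave -0.47, SE 0.23, adjusted p = 0.128. Tcf7, also an activator in many tissues, measured 29.1, 29.7 and 31.0 CPM in Low, 13.0, 13.7 and 16.1 in MedLow, 30.3, 23.1 and 25.2 in HiMed, and 44.7, 38.1 and 46.2 in High. It fell from Low to MedLow (-1.07, SE 0.13, adjusted p = 1.1e-04), then rose to HiMed (0.88, SE 0.13, adjusted p = 3.4e-04) and to High (0.71, SE 0.13, adjusted p = 8.8e-04), where it passed its Low level (0.52, SE 0.13, adjusted p = 0.0039). Tcf7 shares its span with Skp1 in RefSeq.

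The other pair of factors changed less. Tcf7l1, mostly a repressor in epithelial stem cells, ranged from 57.6 to 75.7 CPM, measuring 64.4, 70.6 and 67.3 CPM in Low, 64.4, 57.6 and 63.7 in MedLow, 58.3, 65.7 and 61.3 in HiMed, and 75.7, 75.6 and 73.4 in High. It rose by 0.28, SE 0.079, adjusted p = 0.0199 from HiMed to High, which was not called without HiMed replicate 1 (0.0649), HiMed replicate 3 (0.0639) or High replicate 1 (0.0537). Tcf7l2, the factor of the intestinal crypt, measured 38.9, 33.3 and 31.9 CPM in Low, 39.9, 38.2 and 32.6 in MedLow, 48.1, 44.2 and 37.0 in HiMed, and 69.7, 61.7 and 57.7 in High. Every High library was above every other library, with 0.55, SE 0.12, adjusted p = 0.0041 from HiMed to High and 0.86, SE 0.12, adjusted p = 3.7e-05 from Low to High.

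Genes that beta-catenin is known to activate in many tissues were read beside the factors. Of 16 such genes on a list, 14 were tested and 9 were called between Low and MedLow, 1 higher and 8 lower, with a median of -0.72, where 6.47% of all genes were called. Axin2, the feedback inhibitor most used as a readout, measured 56.5, 63.2 and 44.5 CPM in Low, 23.4, 24.9 and 19.6 in MedLow, 21.7, 16.6 and 20.4 in HiMed, and 70.2, 69.2 and 88.4 in High. It was lowest in the middle bins, as Lef1 was, with -1.27, SE 0.15, adjusted p = 8.0e-05 from Low to MedLow and 1.95, SE 0.15, adjusted p = 6.0e-07 from HiMed to High. Bambi had that shape too, with 45.4 ± 4.44 CPM in Low, then 15.97 ± 3.59 in MedLow, 12.8 ± 0.955 in HiMed, and 70.2 ± 9.68 in High. From HiMed to High 9 of the 14 were called, 7 higher and 2 lower, with a median of 0.82, against 22.3% of all genes. From Low to High all 14 were called, 8 higher and 6 lower, with a median of 0.46, against 41.2% of all genes. Those with the largest change were Nkd1 (4.91, SE 0.43, adjusted p = 7.8e-06), Notum (4.12, SE 0.24, adjusted p = 2.2e-07), Lgr5 (4.12, SE 0.25, adjusted p = 3.4e-07) and Myc (-2.71, SE 0.27, adjusted p = 2.5e-05), so the list did not move in 1 direction over the whole range. Several of its genes also answer to other signals. Axin2, Notum, Rnf43, Znrf3, Lgr5 and Apcdd1 are counted again in other lists below, so those lists are not independent of this one.

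**Figure D4:**
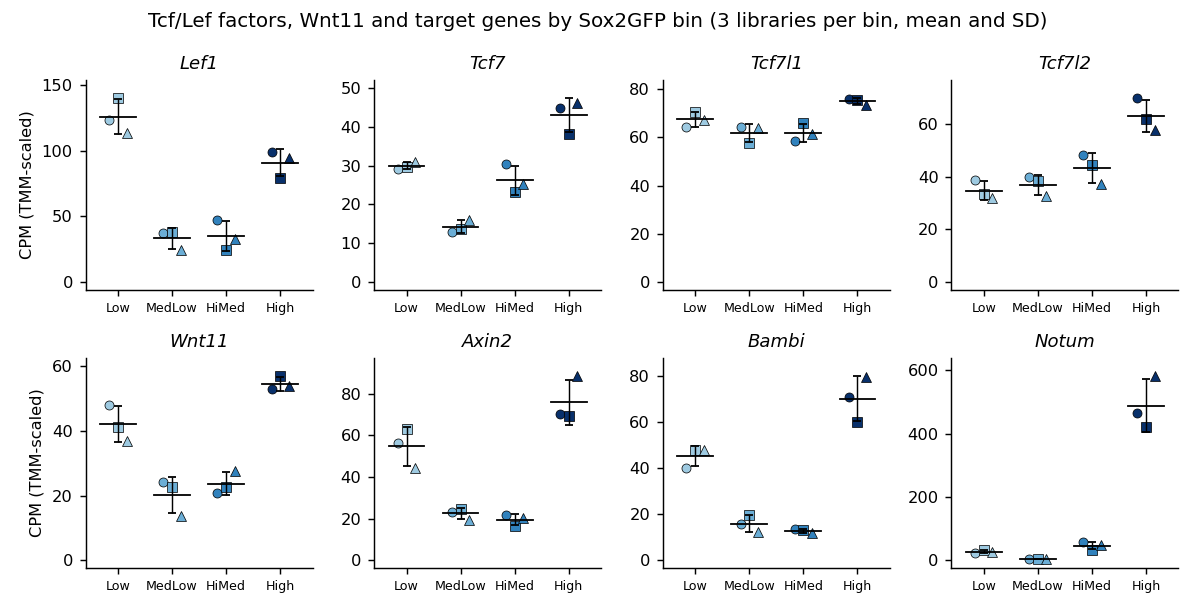
CPM of the 4 Tcf/Lef factors, Wnt11 and the target genes Axin2, Bambi and Notum (y axis, linear, a scale for each gene) in the 4 Sox2GFP bins (x axis), with replicates 1, 2 and 3 as circle, square and triangle, the mean as a line and the SD as a bar. Lef1, Wnt11, Axin2 and Bambi are lower in all 6 middle libraries than in any Low or High library.

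Levels of different genes were compared in TPM, the authors' values, which are scaled for transcript length and depth. Summed over the 19 ligands, TPM hardly differed between the 3 dimmer bins, at 320 ± 13.1 in Low, 317 ± 4.56 in MedLow and 331 ± 5.32 in HiMed, and High had 280 ± 1.89. What changed was the make-up. Wnt4 held 38.1% ± 2.33 of the summed ligand TPM in Low and 10.5% ± 2.57 in High, and Wnt10a 22.04% ± 0.486 and 2.31% ± 0.418. Wnt5a held 4.03% ± 1.51 in Low and 23.99% ± 4.12 in High, and Wnt9a 0.705% ± 0.172 and 10.1% ± 1.17. Wnt7b was the leading ligand of HiMed with 25.7% ± 0.523, and Wnt11 that of High with 31.5% ± 0.652. Low was thus led by Wnt4, Wnt10a and Wnt11, which together held 80.2% of its ligand TPM, and High by Wnt11, Wnt5a and Wnt7b.

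Frizzled TPM grew with the reporter, starting at 208 ± 20.01 in Low, with 241 ± 8.21 for MedLow, 330 ± 0.981 for HiMed and 462 ± 34.9 for High. Fzd7 led in Low with 31.1% ± 4.03 and held 13.9% ± 1.64 in High, while Fzd1 went from 20.4% ± 1.54 to 49.2% ± 2.15. Fzd6, whose CPM was not called in any comparison, went from 19.8% ± 2.93 to 7.22% ± 0.833 of the summed TPM, while its own TPM was 41.5 ± 9.06 in Low and 33.2 ± 1.44 in High. Summed Tcf/Lef TPM was 145 ± 7.04 for Low, 87.7 ± 2.08 for MedLow, 104 ± 10.9 for HiMed and 180 ± 10.2 for High. Lef1 led in Low with 41.8% ± 1.52, and Tcf7l1 led in the other 3 bins, with 44.4% ± 4.44 in MedLow, 39.2% ± 4.52 in HiMed and 29.4% ± 2.90 in High, where Lef1 was close to it at 28.7% ± 4.06. These sums and shares are descriptions and were not tested.

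**Figure D5:**
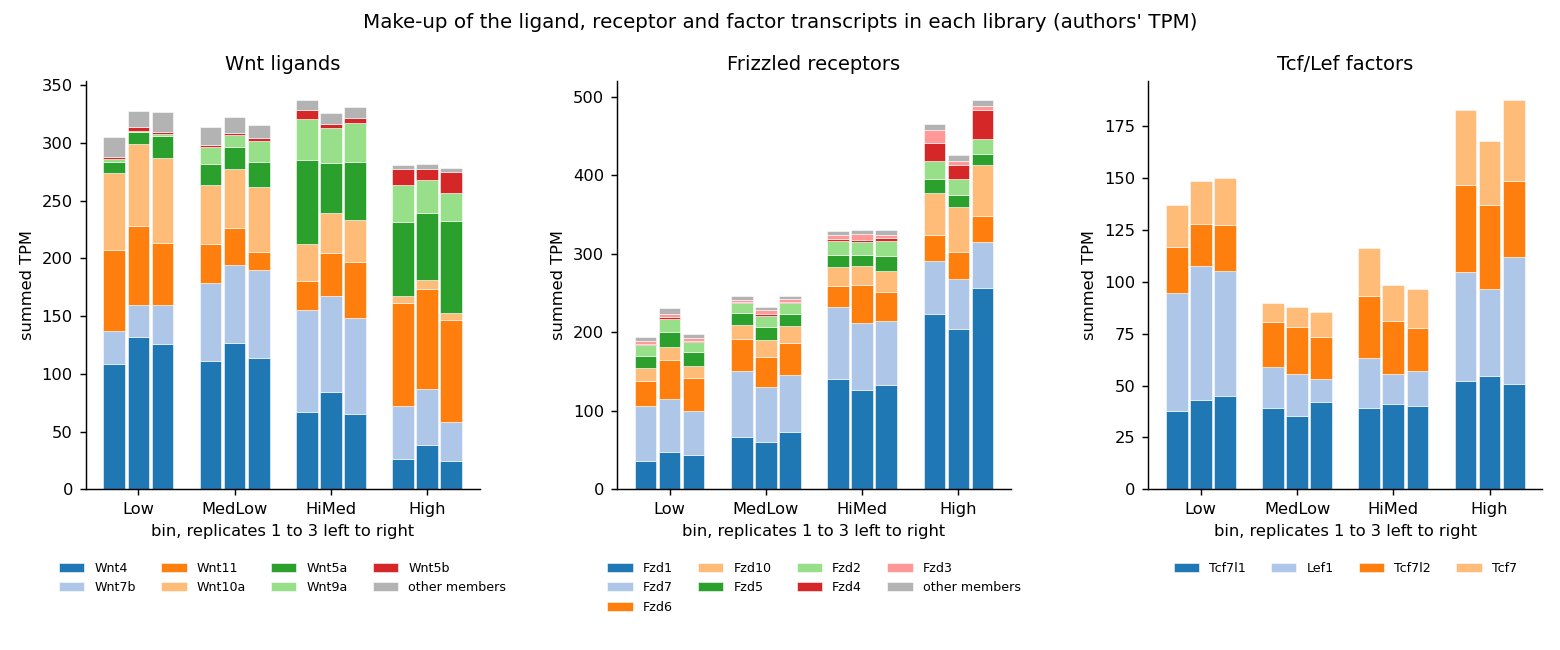
Summed TPM (y axis, linear from 0) of the Wnt ligands, Frizzled receptors and Tcf/Lef factors in each of the 12 libraries (x axis, by bin), with each gene as a coloured part of the bar and genes always under 3% pooled in grey. Ligand bars keep their height up to HiMed while Wnt4 and Wnt10a shrink, and receptor bars grow mainly through Fzd1.

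The machinery around the members was read from lists of other pathway genes, again against 41.2% called of all genes between High and Low. Of 6 genes for lipidation and secretion of Wnt proteins, 2 rose and 2 fell, with a median of -0.02. Those that rose were Wls (0.66, SE 0.10, adjusted p = 7.6e-05), the carrier of Wnt proteins to the cell surface, and Porcn (0.53, SE 0.17, adjusted p = 0.0197), the enzyme that attaches the lipid. Snx3 (-0.30, SE 0.11, adjusted p = 0.0385) and Vps35 (-0.25, SE 0.082, adjusted p = 0.0247), which recycle the carrier, fell. Of 7 other receptors tested, Ror2, a receptor of Wnt5a, rose (1.51, SE 0.27, adjusted p = 3.4e-04), and Ryk (-0.90, SE 0.082, adjusted p = 4.2e-07) and Ptk7 (-0.72, SE 0.089, adjusted p = 9.2e-06) fell, with a median of 0.48. Wnt5a and Ror2 thus both rose from Low to High, but Ror2 was the only 1 of these 7 receptors called higher, against 2 called lower. Ror1 was not called between High and Low (0.48, SE 0.66, adjusted p = 0.624). It fell from MedLow to HiMed (-3.38, SE 0.77, adjusted p = 0.014) and rose from HiMed to High (4.60, SE 0.80, adjusted p = 0.0017).

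Of 7 R-spondin, Lgr and E3 ligase genes tested, 5 rose and 1 fell, with a median of 0.64. Lgr5 (4.12, SE 0.25, adjusted p = 3.4e-07) and Lgr6 (3.29, SE 0.16, adjusted p = 5.8e-09) rose while Lgr4, the third receptor, fell (-1.34, SE 0.088, adjusted p = 1.2e-08). Rspo3, an R-spondin ligand, had no counts in Low and 63 in High, at least 14.8-fold more (adjusted p = 0.0331). It did not exceed 1.18 CPM in any library and was 0 in High replicate 1. Its mean was higher in HiMed (0.792 ± 0.344 CPM) than in High (0.398 ± 0.346). Of 10 antagonists tested, 4 rose and 4 fell, with a median of -0.15. Dkk2 (8.27, SE 1.06, adjusted p = 3.1e-04), which blocks Lrp5 and Lrp6, Wif1 (5.11, SE 0.33, adjusted p = 1.3e-06), which binds Wnt proteins, and Notum (4.12, SE 0.24, adjusted p = 2.2e-07), which removes their lipid, rose. In Low, Dkk2 had counts in replicate 3 alone (0.234 CPM), against 25.6, 16.6 and 38.2 CPM in High, so the size of its change is uncertain. Sfrp1, another binder of Wnt proteins, fell (-3.90, SE 0.16, adjusted p = 4.7e-10).

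Of 17 Dishevelled and destruction complex genes, 8 rose and 4 fell, with a median of 0.18. Apc (0.73, SE 0.11, adjusted p = 7.4e-05), Dvl2 (0.71, SE 0.12, adjusted p = 1.3e-04) and Btrc (0.61, SE 0.20, adjusted p = 0.0262) rose, and Apc2, with no counts in High, was at least 22.6-fold lower there (adjusted p = 0.0072). Of 14 nuclear partners of beta-catenin and the Tcf factors, 2 rose and 3 fell, with a median of -0.03. The co-repressor gene Tle2 rose (1.93, SE 0.23, adjusted p = 2.8e-05) while Tle1 fell (-0.50, SE 0.13, adjusted p = 0.0069), and the co-activator gene Bcl9 rose (0.62, SE 0.10, adjusted p = 7.5e-05) while its relative Bcl9l fell (-0.88, SE 0.082, adjusted p = 4.9e-07). Of 16 genes of planar polarity and other signalling without beta-catenin, 4 rose and 7 fell, with a median of -0.60. Dact1, a modulator of Dishevelled, rose (3.08, SE 0.68, adjusted p = 0.0028), and Dact2 (-1.40, SE 0.14, adjusted p = 1.1e-06) and the polarity genes Prickle2 (-1.75, SE 0.20, adjusted p = 6.0e-06) and Celsr2 (-0.72, SE 0.10, adjusted p = 2.3e-05) fell. Wnt5a, Wnt5b and Fzd3, which act in that branch, rose while more genes of the list fell than rose. Wnt11, of the movement-related branch, was not called between High and Low (0.38, SE 0.18, adjusted p = 0.106). Nor was Fzd6, the partner of Fzd3 in sequence (-0.07, SE 0.11, adjusted p = 0.666).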

How the data were processed

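Polyadenylated RNA of 12 libraries (4 Sox2GFP bins of 3) was sequenced. Per the submitters' processing notes, Salmon 1.4.0 and DESeq2 1.28.1 were used with build mm39. The sources used here do not give the annotation, the summing of transcripts or the strand setting. The authors deposited expected counts per gene symbol, unscaled (16.9% of the members' values were not whole, at a tolerance of 0.001), and TPM values.

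Expected counts were rounded and tested in R 4.3.3 with edgeR 4.0.16 (TMM scaling, filterByExpr with a minimum count of 10, a robust quasi-likelihood fit in edgeR's legacy mode, 1 term per bin, all 12 libraries). That left 17432 genes, the 35238 symbols left out holding 0.0339% of counts, and the common biological coefficient of variation was 0.366. SEs are those the F statistic implies. A gene at 0 in a bin was set to a floor of 3 counts over its libraries, which covers counting error only. Scripts were tested on simulated counts.

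All members are accounted for, those called in the test of any difference by library. Of each pathway list up to 4 called genes with the largest High over Low change are named. Axin2 and Bambi were added after their values were seen. The members and lists were chosen with earlier results of these data known.

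Replicates 1 to 3 occur in every bin, and the series describes a replicate as a pool of mice, which was taken to pair them. After subtracting each bin's mean, 18 same-number pairs of libraries correlated at 0.0208 to 0.337 over 11138 genes (16 pairs above 0.1) and the 36 others at -0.201 to 0.0309. All 12 libraries correlated best with their own number. Alternatives were other scalings, filters, DESeq2 1.42.0, limma 3.58.1 (voom, and log2(TPM + 1) or + 0.1), the replicate block, edgeR 4 defaults (chosen after seeing the data) and leaving out each library.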

Additional observations from a re-analysis of the deposited data

How the results depend on the processing

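The counts of called members stayed within 1.5 times their main value under every alternative, and no called gene changed direction. Leaving out 1 library gave 16 to 20 called members for High against Low, 14 to 17 for High against HiMed, 9 to 11 for HiMed against MedLow, 7 to 9 for MedLow against Low and 20 to 25 for any difference. With the replicate block, pairing the libraries by number, the counts were 19, 18, 10, 9 and 25. The calls it changed for single members are given beside them, and it ended none. Of 78 called differences of a member, 60 were called under every alternative and 18 were lost under at least 1.

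TPM shifted all genes. Their median change from Low to High was 0.14 on the log2 scale with log2(TPM + 1) and 0.17 with log2(TPM + 0.1), and 4355 genes were called higher and 2158 lower with the former, against 3489 and 3693 in counts. There, members called between Low and MedLow were 3 higher and 5 lower (3 and 3 with the smaller pseudocount), against 5 and 3 in counts, and calls lost with both pseudocounts were those of Fzd3 (HiMed over MedLow), Wnt5a and Fzd10 (MedLow over Low), Lrp5, Fzd8 and Wnt10b (High over HiMed), Wnt6 and Lrp6 (High over Low) and, for any difference, Fzd3, Lrp6 and Wnt6. Wnt3 (HiMed over MedLow) lost its call with log2(TPM + 1), and Wnt16 gained 1 for High over Low with log2(TPM + 0.1) (adjusted p = 0.0268). Wnt7b (0.0094 and 0.0092) and Tcf7l1 (0.0168 and 0.0181, against 0.146 in counts) gained that call with both pseudocounts. Library size scaling called them too (0.0326 and 0.026). Ctnnb1 (HiMed over MedLow) was called with both, and Wnt10b (0.0080) and Wnt3 (0.0336) were called lower in MedLow than in Low with log2(TPM + 1). Limma voom did not call Fzd10 (MedLow over Low) or Lrp6 (High over Low), and called Lef1 lower (0.0269) and Wnt11 higher (0.0466) in High than in Low. Scaling by library size alone called 3976 genes higher and 3149 lower in High, with 15 members higher and 7 lower. From MedLow to HiMed it called 1533 higher and 806 lower, against 1278 and 1099, and log2(TPM + 1) 1103 and 423, with 5 members higher and 5 lower and 5 and 4. Without a filter on low counts 10 members were higher in High than in Low, and Lrp6 (adjusted p = 0.0503) and the any-difference call of Tcf7l1 (0.0542) were lost. Depth limits Wnt3, Wnt9b, Wnt10b, Wnt16 and Fzd9, and libraries that stand apart within a bin of 3 were not tested for.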

Other observations

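The deposited TPM and counts of a gene did not keep 1 ratio across libraries. The ratio of TPM to unscaled CPM varied over 2-fold between libraries for 4 of the 30 tested members and for 18.7% of all tested genes. The members were Fzd3 (3.09-fold between the highest and lowest library), Wnt16 (3.28-fold), Wnt6 (2.73-fold) and Wnt5a (2.13-fold). Fzd3 had 16.8 TPM in High replicate 1 and 5.65 and 5.52 TPM in replicates 2 and 3, while its counts there were 1945, 2270 and 1978. The TPM share of Fzd3 and of Wnt5a therefore carries a spread that their counts do not show.

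Lrp4, a relative of Lrp5 and Lrp6 and itself a receptor for Wnt antagonists, had the shape of Lef1 and Axin2, with 202, 211 and 220.3 CPM in Low, 61.5, 70.8 and 63.3 in MedLow, 57.3, 47.1 and 62.3 in HiMed, and 238, 201 and 283 in High. All 6 middle libraries were below all 6 outer ones. It fell from Low to MedLow (-1.70, SE 0.12, adjusted p = 1.3e-06) and rose from HiMed to High (2.11, SE 0.12, adjusted p = 1.1e-07). Rnf43, an E3 ligase gene that removes Frizzled receptors and a beta-catenin target, also had lower means in the middle bins, at 84.7 ± 3.93 CPM in Low, then 57.1 ± 3.42 in MedLow, 54.4 ± 5.75 in HiMed, and 119 ± 20.4 in High. Apcdd1, an inhibitor at the cell surface, was instead highest in Low, with 452 ± 53.6 CPM in Low, then 112 ± 18.8 in MedLow, 39.7 ± 7.09 in HiMed, and 108 ± 12.8 in High. Lrp4, Rnf43 and Apcdd1 were picked here after their values were seen.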
